A study of Mus musculus with 78 samples.

Results

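Repeated saline injection was examined as a condition of its own: striatal RNA from the twelfth day of injections was set against striatal RNA from the first. The members are 6 of the 78 arrays of the study, 3 labelled saline treatment day 1 and 3 labelled saline treatment day 12, and they were chosen by their labels and not by a measured value. The 3 saline arrays of day 3 and the 3 of day 6 are intermediate points, and all 12323 genes that passed a filter on low signals were tested. The mice were C57BL/6J and received intraperitoneal saline in 2 injections daily over a course of up to 12 days, as the control of heroin and methamphetamine. The comparison asks how the striatum adapts to handling and injection alone. Heroin, given on the same schedule with a first dose of 10 mg/kg and a last dose of 40 mg/kg, supplies a second day 12 against day 1 comparison with 3 arrays a day, and 6 arrays of naive mice show the level without a saline course. Age, sex, time of day and the interval between the last injection and decapitation are not given in the sources used here. Nothing in the labels says whether replicates are separate animals, so p-values measure only the spread between the samples fitted, and 3 arrays a day limit the precision.

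The striatum is the input nucleus of the basal ganglia, and most of its neurons are medium spiny neurons that respond to dopamine. An injection is a brief stressor: it raises circulating corticosterone, which acts through the glucocorticoid receptor on target genes, and it activates forebrain neurons. Activated neurons switch on immediate early genes such as Fos within minutes, and the response to a repeated mild stressor is known to decline in many brain regions. In bulk tissue, fewer cells of a type and less RNA per cell cannot be told apart.

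Slide position differed between the days. The BeadChips carry 6 arrays, lettered A to F, on each of 13 slides. All 3 day 1 arrays lay at position A of slides 3, 6 and 12, and all 3 day 12 arrays at position C of slides 4, 9 and 13. Day 3 used positions A, B and B, and day 6 used B, B and C. Position and day cannot be told apart within these saline arrays, and no slide holds both days, so no value within a slide could be had. The chip lot of day 1 replicate 1 differed from that of the other 5 arrays. The heroin arrays had the same positions, with day 1 at A and day 12 at C, and the 3 heroin day 12 arrays lay on slides 3, 6 and 12, those of saline day 1. The naive arrays were all at F. Median signals of the 12 saline arrays ran from 100.3 to 170.2 intensity units. Pearson correlations among the 6 arrays of days 1 and 12, across genes, ran from 0.9793 to 0.9948.

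Levels below are log2 intensities after quantile normalization. A plain difference is the mean of the 3 day 12 levels minus that of the 3 day 1 levels. A fitted difference, given with its SE, comes from 1 limma model over 75 arrays with a term for each slide, so the days are linked only through other groups on their slides. Its SE and p rest on a spread pooled over all 24 groups in the fit, which can differ from the spread of the saline arrays compared. An adjusted p is limma's p after Benjamini-Hochberg adjustment over all 12323 genes, with 0.05 as the threshold. A difference given with an SE is the fitted one, and plain and fitted differences often disagree in size here. Where array position is added to the model, A is told from C only through groups spread over several positions. Days 1 and 12 of saline and of heroin lie wholly at A and C, so they do not separate these positions themselves.

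Before the results, arrays that stand apart have to be named. Genes of the olfactory bulb and olfactory epithelium, which lie outside the striatum, were high on saline day 1 replicates 2 and 3, on saline withdrawal day 24 replicate 2 and on methamphetamine withdrawal day 15 replicate 1. Not all of these genes are specific to those tissues. Striatal interneurons also make Calb2 and dopamine neurons Th, and naive arrays had Calb2 at 10.63 to 11.54 and Tshz1 at 11.28 to 11.52. Averaged over 12 such genes, the level relative to the naive mean was 1.24 and 1.82 log2 units on the 2 saline day 1 arrays, 1.40 and 1.64 on the 2 withdrawal arrays, and at most 0.69 on each of the other 71. Saline withdrawal day 24 replicate 2 lies on the slide of saline day 12 replicate 1, and methamphetamine withdrawal day 15 replicate 1 on that of saline day 12 replicate 2, so these arrays enter the slide terms on both sides of the comparison. Fitted values without the 4 olfactory-high arrays are given for the genes and lists where this is said, although they leave day 1 with a single array, which is assumed to vary like the other groups. That array is replicate 1, from the other chip lot. Its mean level was 0.51 for immediate early genes, against 0.15 and 0.24 on replicates 2 and 3. For microglial genes it was -0.35, against 0.13 and -0.11. Such values therefore rest on 1 array that itself differs from the other day 1 arrays. Among the day 12 arrays, replicate 3 stood apart for genes of thalamic and hypothalamic neurons, which also lie outside the striatum. Their mean level over the naive mean was 1.40 on it, against -0.06 and 0.06 on replicates 1 and 2, and no other array in the fit was as high. Its level for cortical excitatory neurons, -0.595, was the lowest of the saline treatment arrays. The part of such tissue in the day 12 differences was not tested.

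**Figure D1:**
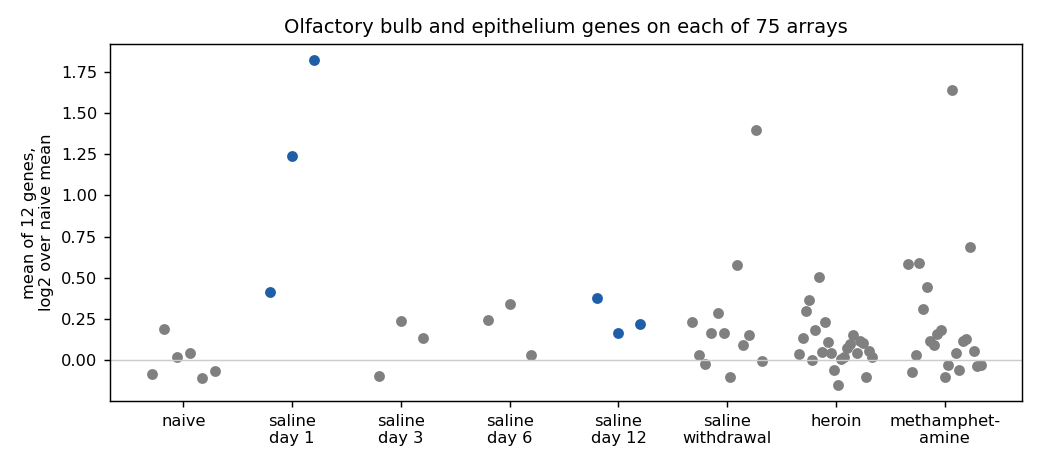
Mean level of 12 olfactory genes on each of 75 arrays, in log2 units over the naive mean; each point is 1 array, and saline days 1 and 12 are in blue. The day 1 arrays at 1.24 and 1.82 lie above every other saline treatment array.

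Between day 1 and day 12 of saline, 1 of 12323 genes passed the threshold, which is 0.00811% of the genes tested. It was Ramp1, which encodes the receptor activity-modifying protein that turns the calcitonin receptor-like receptor into a receptor for calcitonin gene-related peptide, and it rose. Ramp1 stood at 11.65, 11.71 and 11.62 for day 1, at 11.76, 11.72 and 11.90 for day 3, at 11.79, 11.76 and 11.74 for day 6 and at 11.79, 11.89 and 11.87 for day 12. The 3 day 12 arrays lay above the 3 day 1 arrays, but both groups lay within the range of the naive arrays, 11.57 to 11.89. The plain difference was 0.19, a 1.14-fold change, and the fitted one 0.40 ± 0.0750 (adjusted p = 0.0419). Without a slide term the difference was 0.19 (adjusted p = 1), with array position added to the model 0.27 (adjusted p = 1) and without the 4 olfactory-high arrays 0.39 (adjusted p = 0.365). A dimmer probe of Ramp1 gave a plain difference of 0.10. At an unadjusted p under 0.05 there were 607 higher (4.93%) and 609 lower genes (4.94%), together 9.87% of those tested.

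Rpp38, a protein subunit of ribonuclease P and of ribonuclease MRP, came next. Its levels were 8.42, 8.42 and 8.36 for day 1, 8.73, 8.60 and 8.61 for day 3, 8.65, 8.56 and 8.52 for day 6 and 8.58, 8.81 and 8.62 for day 12. Day 1 was the low group, below all 9 later arrays and below the naive arrays, which began at 8.45. The plain day 12 difference was 0.27 and the fitted one 0.42 ± 0.0838 (adjusted p = 0.0537), or 0.40 without the 4 olfactory-high arrays. In a fit of a straight line over log2 of the treatment day, Rpp38 and Ramp1 were the 2 genes past the threshold, 0.0162% of those tested, with slopes of 0.12 ± 0.0230 and 0.11 ± 0.0206 per doubling of the day (adjusted p = 0.0432 for both).

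The other genes with the smallest p-values did not pass and are given as values. Higher on day 12 were Acox2, the peroxisomal oxidase of branched-chain fatty acids and bile acid intermediates, at 0.49 ± 0.118, and Pars2, the mitochondrial prolyl-tRNA synthetase, at 0.43 ± 0.111. Zfp941 at 0.46 ± 0.114, Nsun7 at 0.54 ± 0.134, Spg21 at 0.34 ± 0.0865, Oxld1 at 0.42 ± 0.108, Gm715 at 0.39 ± 0.105 and Dmkn at 0.64 ± 0.172 filled the rest of the higher 10. Adjusted p-values of these 8 genes ran from 0.228 to 0.243. Their plain differences were smaller, from 0.19 for Spg21 to 0.37 for Nsun7, with 0.30 for Acox2 and 0.32 for Dmkn. Without the 4 olfactory-high arrays the 8 ran from 0.33 to 0.65. Pars2 stood at 8.09, 8.06 and 8.25 for day 1 and at 8.44, 8.38 and 8.52 for day 12, with days 3 and 6 between 8.18 and 8.54. Day 1 had its lowest mean, as for Rpp38, although 1 day 3 array lay among the day 1 arrays.

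Among the lower 10, Msra, the reductase that repairs oxidized methionine, is not a gene of the olfactory list. It stood at 7.59, 7.65 and 7.78 for day 1 and at 7.32, 7.32 and 7.38 for day 12, the latter below the naive range of 7.41 to 7.68. The fitted difference was -0.38 ± 0.0936 (adjusted p = 0.228), and it was -0.43 without the 4 olfactory-high arrays. Zfp608, a zinc finger gene, was at 10.12, 10.16 and 10.40 for day 1, at 9.96, 9.84 and 10.01 for day 12 and between 9.72 and 9.99 on days 3 and 6, with a fitted difference of -0.46 ± 0.105 (adjusted p = 0.228). Its day 1 arrays stood above all later ones and above the highest naive array, 10.03, in the same order as their olfactory levels, and the fitted difference was -0.32 without the 4 olfactory-high arrays. Further probes of Zfp608 gave plain differences of -0.11 and -0.15, against -0.29 for the probe used. Cdk14, a cyclin-dependent kinase that acts in Wnt signalling, differed by -0.71 ± 0.178, Lhfp by -0.74 ± 0.186, Col24a1, a collagen chain, by -1.0 ± 0.254 and H2-T24, a class I histocompatibility gene, by -0.39 ± 0.0981, all with adjusted p = 0.228. Their plain differences were -0.51, -0.48, -0.56 and -0.25 in the same order. Without the 4 olfactory-high arrays the fitted ones were -0.46, -0.50, -0.53 and -0.38.

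The remaining 4 of the lower 10 were Scgn, Sp8, Lgr5 and Ms4a15, of which Scgn and Sp8 are markers of olfactory bulb interneurons. Scgn, which encodes the calcium sensor secretagogin, stood at 7.60, 7.96 and 8.88 for day 1 and at 7.42, 7.03 and 7.14 for day 12, a fitted difference of -1.28 ± 0.303. Ms4a15, which is on no list here, stood at 7.0, 7.57 and 8.04 for day 1 and at 6.95, 6.80 and 6.77 for day 12, with the same order of the day 1 arrays. Leaving out the 4 olfactory-high arrays brought Scgn to -0.44, Sp8 from -1.02 to -0.57, Lgr5 from -1.05 to -0.38 and Ms4a15 from -0.95 to -0.28. These 4 arrays were chosen by a list that holds Scgn and Sp8, and they include saline day 1 replicates 2 and 3. Smaller differences for genes high on those arrays follow from that choice and are no separate evidence.

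**Figure D2:**
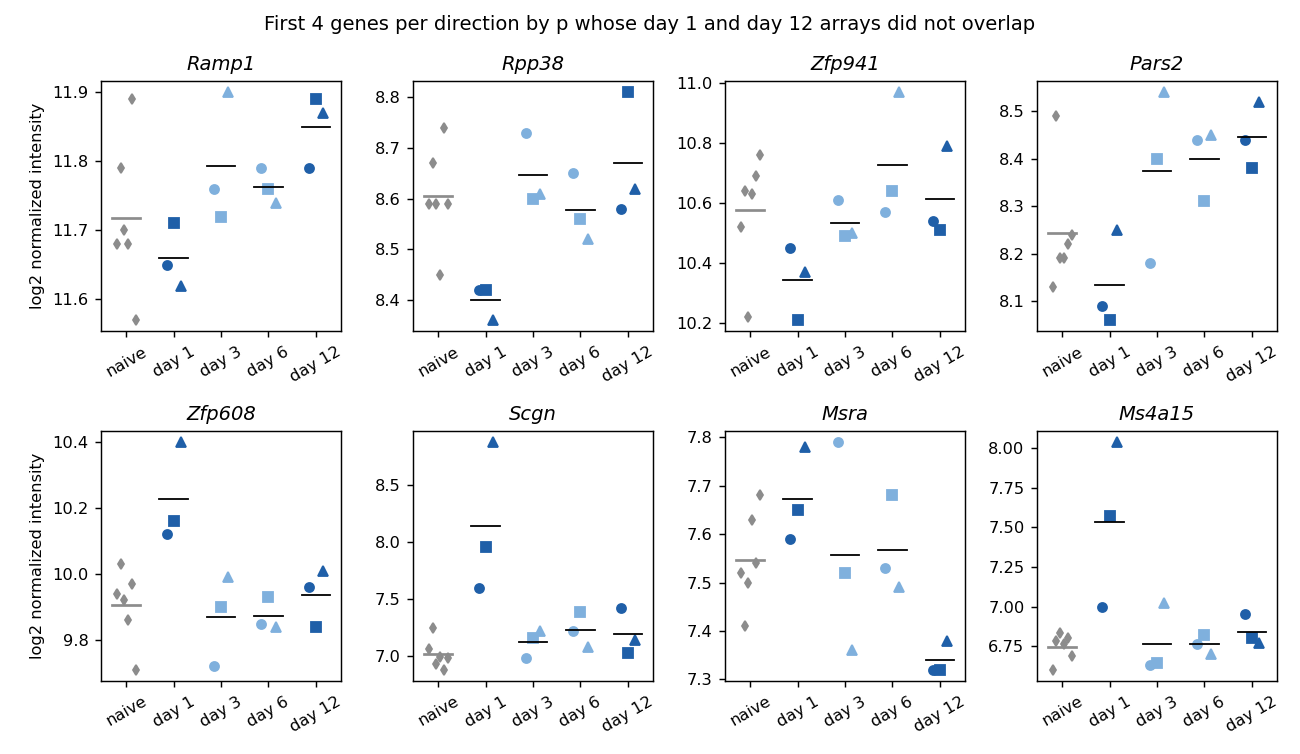
Levels of 8 genes by array (log2 normalized intensity, with an axis of its own for each gene): naive arrays in grey, saline days 1 and 12 in dark blue and days 3 and 6 in light blue, with circles, squares and triangles for replicates 1, 2 and 3 and a bar at each mean. The upper row is higher on day 12 and the lower row lower, and for Rpp38 and Zfp608 day 1 is the group that lies apart.

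The olfactory list, 12 of 15 genes measured, was compiled after its values had been seen, and its counts are descriptions. Probes needed only 1 group with all arrays above the 50th percentile, so a gene low elsewhere could enter through day 1. Of the genes dropped, Synpr was at 6.69, 6.64 and 6.37 for day 1 and at 6.49, 6.57 and 6.65 for day 12. Eomes and Tbx21, also dropped, were higher on day 1 replicates 2 and 3 than on replicate 1. All 12 measured genes were lower on day 12, with a median fitted difference of -1.05 and a median plain difference of -0.79, against 0 for all genes. Omp, the marker protein of mature olfactory sensory neurons, stood at 7.49, 10.03 and 10.20 for day 1, at 6.93, 7.98 and 7.33 for day 3, at 7.52, 7.79 and 6.87 for day 6 and at 7.81, 8.35 and 7.14 for day 12. Replicates 2 and 3 of day 1 were the high arrays, while replicate 1 lay within the range of day 12. Its naive levels were low, 6.80 to 7.08. Cdhr1, a cadherin of mitral and tufted cells in the bulb, stood at 9.0, 10.0 and 10.96 for day 1 and at 8.88, 8.09 and 8.13 for day 12. S100a5, a calcium-binding protein of olfactory sensory neurons, differed by -2.14 ± 0.696 and Th, tyrosine hydroxylase, which bulb interneurons make, by -0.99 ± 0.285. The dopamine transporter Slc6a3 had another pattern, 8.63 on day 1 replicate 1 and 7.04 and 7.52 on replicates 2 and 3, against 6.83 to 6.96 for day 12. No olfactory gene passed (adjusted p = 0.243 for Omp), and without the 4 olfactory-high arrays the list median was -0.21. Those arrays were chosen by the level of this list, so the smaller median follows from the choice. In heroin the median was 0.17 fitted and -0.05 plain, and heroin day 12 shares its slides with the 2 olfactory-high day 1 arrays. The part of this tissue in other results was not tested.

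Immediate early genes had no member past the threshold. Of 22 listed, 18 were measured and 0 passed the threshold between days 12 and 1, with 13 of 18 differences above 0 and medians of 0.16 fitted and 0.21 plain. The fitted median was -0.13 without the 4 olfactory-high arrays and 0.01 in heroin. Fos, the transcription factor that pairs with Jun proteins in AP-1, stood at 9.72, 8.97 and 9.38 for day 1, at 8.67, 8.54 and 8.33 for day 3, at 9.34, 9.59 and 9.17 for day 6 and at 10.53, 10.31 and 10.25 for day 12. The 6 naive arrays had a median of 8.62, with a low of 7.85 and a high of 9.48. Day 12 thus lay above every array of days 1, 3 and 6 and of the naive mice, day 3 was the lowest saline day, and days 1 and 6 overlapped. The plain day 12 difference from day 1 was 1.01, or 2.01-fold, and the fitted one 0.60 ± 0.300 (adjusted p = 0.506). With array position in the model the difference was 1.00, and without the 4 olfactory-high arrays, which leaves day 1 with its highest Fos array, it was -0.04.

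The contrast with day 3 was larger. Fos was 1.23 ± 0.310 higher on day 12 than on day 3 in the slide fit (adjusted p = 0.734), with 0 of 12323 genes (0%) past the threshold and 381 at an unadjusted p under 0.05. In the same arrays without a slide term it rose by 1.85 ± 0.270 (adjusted p = 7.42e-05), and with slide as a random block by 1.57 ± 0.264 (adjusted p = 0.00191). The fit without a slide term called 5 genes: Fos, Npas4 (1.32, adjusted p = 0.00288), Dusp1 (0.81, adjusted p = 0.00908), Gadd45b (0.65, adjusted p = 0.0166) and the heat shock gene Hspa4l (0.45, adjusted p = 0.0253). Of these, Fos and Npas4 also passed when only the 12 saline treatment arrays were fitted. Positions A and B were used on day 3 and C on day 12.

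Npas4, an activity-dependent transcription factor of neurons, stood at 9.77, 9.43 and 9.35 for day 1, at 8.58, 8.24 and 8.69 for day 3, at 9.34, 9.19 and 9.10 for day 6 and at 9.89, 9.80 and 9.79 for day 12. Arc, which encodes a protein of active synapses, stood at 11.25, 10.61 and 10.30 for day 1, at 9.98, 10.31 and 9.95 for day 3, at 10.48, 10.75 and 10.15 for day 6 and at 11.26, 11.65 and 11.11 for day 12. Dusp1, a phosphatase that shuts off MAP kinases, stood at 11.27, 10.81 and 10.96 for day 1 and at 11.45, 11.55 and 11.33 for day 12. Day 12 had the highest mean and day 3 the lowest for all 3 genes, as for Fos, although Arc overlapped between days 1 and 12. Their plain day 12 differences from day 1 were 0.31, 0.62 and 0.43, and the fitted ones 0.18 ± 0.256, 0.22 ± 0.351 and 0.25 ± 0.187. Without the 4 olfactory-high arrays the fitted values turned to -0.41, -0.43 and -0.05. A second, dim probe of Npas4 gave a plain difference of -0.09.

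Every day 12 array lay above every day 1 array for 5 of the 18 immediate early genes, Fos, Fosb, Egr4, Npas4 and Dusp1, and below for 1, Egr1. Fosb, a partner of Jun proteins like Fos, stood at 9.05, 8.78 and 8.77 for day 1 and at 9.32, 9.19 and 9.14 for day 12, with a fitted difference of 0.23 ± 0.161. Egr4, a zinc finger factor, stood at 11.55, 11.62 and 11.38 for day 1 and at 11.89, 11.84 and 11.67 for day 12, but its fitted difference was 0 ± 0.220. Without the 4 olfactory-high arrays these were -0.08 for Fosb and -0.52 for Egr4. Over all genes 4.31% were separated upward and 4.8% downward. Junb and Egr2 had higher day 12 means, 10.09 against 9.68 and 9.55 against 9.02, with overlapping arrays. Egr1, at 14.46, 14.27 and 14.23 for day 1 and 14.18, 14.19 and 14.21 for day 12, was the exception among the Egr genes. Sik1, a kinase induced by cAMP signalling, had the smallest p of the list with 0.42 ± 0.129 (adjusted p = 0.248). Averaged over the 18 genes, relative to the naive mean, the level was 0.15 to 0.51 for day 1, -0.11 to 0.07 for day 3, 0.01 to 0.24 for day 6 and 0.43 to 0.57 for day 12, so only the highest day 1 array reached the range of day 12. The naive arrays themselves spread from -0.26 to 0.56. Among saline withdrawal arrays Fos ran from 8.79 on day 15 to 10.55 on day 18, so levels as high as those of day 12 also occurred in the withdrawal groups.

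**Figure D3:**
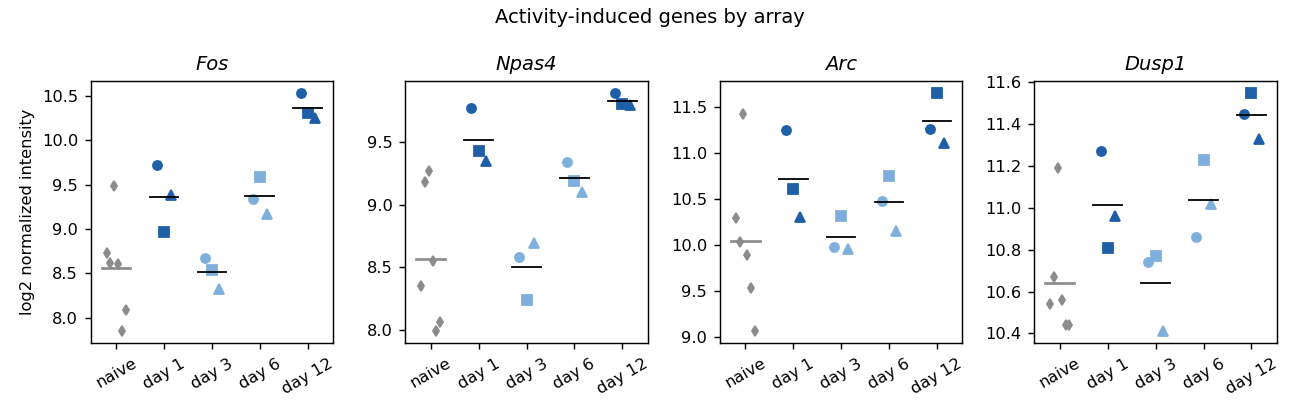
Levels of 4 activity-induced genes by array (log2 normalized intensity, an axis for each gene): naive arrays in grey, saline days in blue, with circles, squares and triangles for replicates 1, 2 and 3 and a bar at each mean. Day 3 has the lowest saline mean and day 12 the highest in each panel.

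The promoters of the 5 immediate early genes whose day 12 arrays lay above every day 1 array are shown, since these genes carry the upward separation of the list. Many activity-induced genes are switched on by CREB, which binds the cAMP response element TGACGTCA and its shorter core TGACG. The windows are the 250 bases before the start of each gene, from RefSeq on GRCm38.p6: Fos at chr12:85473640-85473889 on the plus strand, Fosb at chr7:19310046-19310295, Npas4 at chr19:4989972-4990221, Egr4 at chr6:85513590-85513839 and Dusp1 at chr17:26508473-26508722, the last 4 on the minus strand. Capitals mark TGACG read on either strand, including the complete element where present.
Fos: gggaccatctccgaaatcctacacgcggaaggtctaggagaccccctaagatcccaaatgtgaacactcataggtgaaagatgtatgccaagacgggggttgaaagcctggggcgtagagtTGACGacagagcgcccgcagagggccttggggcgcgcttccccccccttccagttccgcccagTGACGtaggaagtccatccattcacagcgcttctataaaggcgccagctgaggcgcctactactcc
Fosb: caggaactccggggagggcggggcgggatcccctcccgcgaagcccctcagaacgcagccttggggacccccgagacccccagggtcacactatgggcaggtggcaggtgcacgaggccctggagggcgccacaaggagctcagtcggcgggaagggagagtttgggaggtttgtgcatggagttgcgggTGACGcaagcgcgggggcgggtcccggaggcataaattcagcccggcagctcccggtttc
Npas4: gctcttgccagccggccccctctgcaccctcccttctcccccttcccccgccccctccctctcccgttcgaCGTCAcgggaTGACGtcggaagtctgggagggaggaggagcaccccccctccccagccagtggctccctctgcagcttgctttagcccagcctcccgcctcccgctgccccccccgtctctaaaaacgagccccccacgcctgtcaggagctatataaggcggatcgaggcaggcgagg
Egr4: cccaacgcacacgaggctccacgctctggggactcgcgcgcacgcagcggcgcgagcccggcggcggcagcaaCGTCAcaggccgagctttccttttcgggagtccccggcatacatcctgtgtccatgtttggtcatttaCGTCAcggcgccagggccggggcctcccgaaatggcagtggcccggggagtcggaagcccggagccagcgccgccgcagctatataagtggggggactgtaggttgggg
Dusp1: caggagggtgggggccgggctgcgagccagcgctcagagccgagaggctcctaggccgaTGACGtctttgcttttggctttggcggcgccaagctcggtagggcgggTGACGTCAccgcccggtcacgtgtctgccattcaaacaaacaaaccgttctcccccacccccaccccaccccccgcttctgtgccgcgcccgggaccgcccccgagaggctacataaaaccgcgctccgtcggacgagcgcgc

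Each of the 5 windows held at least 1 core, Fos 2, Fosb 1, Npas4 2, Egr4 2 and Dusp1 3, and Dusp1 also held the complete element, which contains the core on both strands. Windows were found for 17 of the 22 listed genes, 22 windows in all since Egr2 and Homer1 have several, and 16 of 22 (72.7%) held the core against 17.8% of the 32851 windows in the table. The complete element was in 2 of 22 (9.09%) against 1.55%. These are letter matches on either strand.

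Late activity-regulated genes, induced after the first wave, divided. Of 12 measured genes 0 passed, with a median fitted difference of -0.03. Gadd45b, a DNA damage-inducible gene also induced by neuronal activity, stood at 8.67, 8.34 and 8.75 for day 1 and at 8.78, 9.17 and 8.85 for day 12 (0.31 ± 0.139, adjusted p = 0.432). Its relative Gadd45g was at 11.57, 11.43 and 11.42 for day 1 and at 11.81, 11.70 and 11.79 for day 12, and Scg2, a secretogranin of dense-core vesicles, was also separated upward. Bdnf, the neurotrophin, had a fitted difference of -0.81 ± 0.339 (adjusted p = 0.384), with overlapping arrays of 7.88 to 8.43 for day 1 and 7.43 to 8.02 for day 12. Trib1 was separated downward, with a plain difference of -0.24.

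Corticosteroid-responsive genes showed no common direction in their median. Of 25 listed genes 24 were measured and 0 passed, with 10 of 24 fitted differences above 0 and a median of -0.03. At an unadjusted p under 0.05 from limma, 4 of the 24 were lower and 0 higher, where 4.94% of all genes were lower and 4.93% higher. Plin4, a lipid droplet coat protein, stood at 8.50, 8.16 and 7.94 for day 1, at 7.51, 8.00 and 8.09 for day 3, at 7.76, 7.61 and 8.55 for day 6 and at 7.75, 7.77 and 7.73 for day 12. The day 12 arrays lay below the day 1 arrays and close to the naive median of 7.77, with a plain difference of -0.45 and a fitted one of -0.64 ± 0.261 (adjusted p = 0.382), or -0.72 without the 4 olfactory-high arrays. Cdkn1a, the cell cycle inhibitor p21, stood at 9.09, 9.22 and 9.61 for day 1 and at 9.01, 8.94 and 8.92 for day 12, -0.40 ± 0.179 fitted and -0.05 without the 4 olfactory-high arrays. Klf9 and Map3k6 were also separated downward, with plain differences of -0.21 and -0.07.

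Other members of the list leaned the other way or were level. Hif3a, a hypoxia-inducible factor subunit, stood at 7.68, 8.18 and 7.90 for day 1 and at 8.19, 8.24 and 8.23 for day 12, and Ddit4, an inhibitor of mTOR signalling, at 10.11, 9.86 and 10.07 for day 1 and at 10.28, 10.39 and 10.22 for day 12. The day 12 arrays of both genes lay above those of day 1, narrowly for Hif3a, as did those of Dusp1, which is on this list too. Sgk1, a kinase induced by corticosteroids, differed by 0.10 ± 0.222 (adjusted p = 0.932), and Fkbp5, the chaperone that restrains the glucocorticoid receptor, by 0.15 ± 0.116 (adjusted p = 0.703). The receptor gene Nr3c1 differed by 0.16 ± 0.127 fitted and -0.09 plain.

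The clock list had 16 of 19 genes measured, 0 past the threshold and a median of -0.06. Per2, a repressor of the clock, stood at 11.12, 10.78 and 10.43 for day 1 and at 10.42, 10.49 and 10.53 for day 12 (-0.35 ± 0.178, adjusted p = 0.514), while Per1 differed by -0.07 ± 0.170. Bhlhe40, another repressor, had the smallest p of the list, with -0.40 ± 0.152 (adjusted p = 0.375). The activator Arntl differed by -0.10 ± 0.114, Ciart by -0.06 ± 0.128 and the output regulator Dbp by 0.02 ± 0.124. Dbp was separated downward in plain levels, 13.08 to 13.20 for day 1 and 12.94 to 13.02 for day 12.

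Genes of medium spiny neurons leaned higher on day 12. Of 19 listed markers 16 were measured, among them Ppp1r1b and Rgs9 at levels of 14.29 to 14.70 on every saline treatment array. Of these, 0 passed. All 16 fitted differences were above 0, with a median of 0.35, where 6180 of all 12323 genes were above 0, and 10 had an unadjusted p under 0.05 where 4.93% of all genes did so upward. The plain median was 0.17. Tac1, the precursor of substance P in neurons of the direct pathway, stood at 12.39, 12.26 and 12.37 for day 1, at 12.82, 12.67 and 12.73 for day 3, at 12.26, 12.74 and 12.73 for day 6 and at 12.59, 12.54 and 12.62 for day 12, with a fitted difference of 0.53 ± 0.182 (adjusted p = 0.305). Ppp1r1b, which encodes the dopamine-regulated phosphatase inhibitor DARPP-32, stood at 14.34, 14.35 and 14.32 for day 1 and at 14.52, 14.48 and 14.53 for day 12, and its other probes gave plain differences of 0.28 and 0.32. For Arpp21, another striatal gene, the probes disagreed. The brightest gave a plain difference of 0.08 and the dimmer ones -0.38, -0.39 and -0.40, so the direction can depend on the probe used. Rgs9, Pde10a and Bcl11b were also separated upward. The dopamine receptors Drd1 and Drd2 differed by 0.31 ± 0.190 and 0.46 ± 0.210, and the opioid peptide genes Pdyn and Penk by 0.44 ± 0.174 and 0.28 ± 0.156, all with overlapping arrays. The list median was 0.21 with position in the model, 0.24 without the 4 olfactory-high arrays and -0.04 in heroin. Day 1 had the lowest mean: averaged over the list, its arrays lay at -0.10 to 0.02 relative to the naive mean, day 3 at 0.11 to 0.26, day 6 at -0.06 to 0.12 and day 12 at 0.08 to 0.15.

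Markers of cortical excitatory neurons were lower on day 12 in the same fit. Of 13 listed, 11 were measured and 0 passed, with 9 of 11 fitted differences below 0, a median of -0.59 and a plain median of -0.26. Slc17a7, the vesicular glutamate transporter of cortical neurons, stood at 11.15, 10.69 and 11.45 for day 1, at 10.67, 10.13 and 9.58 for day 3, at 11.14, 11.32 and 11.04 for day 6 and at 10.17, 10.67 and 9.14 for day 12. The 6 naive arrays ran from 9.47 to 11.82, a span as wide as that of all saline days together. Its fitted difference was -1.72 ± 0.658 (adjusted p = 0.377), the plain one was -1.10, and without the 4 olfactory-high arrays it was -1.13. It was 0.53 with position in the model, as was the list median. Nrn1 and Neurod2 differed by -1.19 ± 0.512 and -1.05 ± 0.497, and the position fit turned both to 0.82 and 0.72. The part of cortical tissue in the differences of medium spiny and activity genes was not tested.

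**Figure D4:**
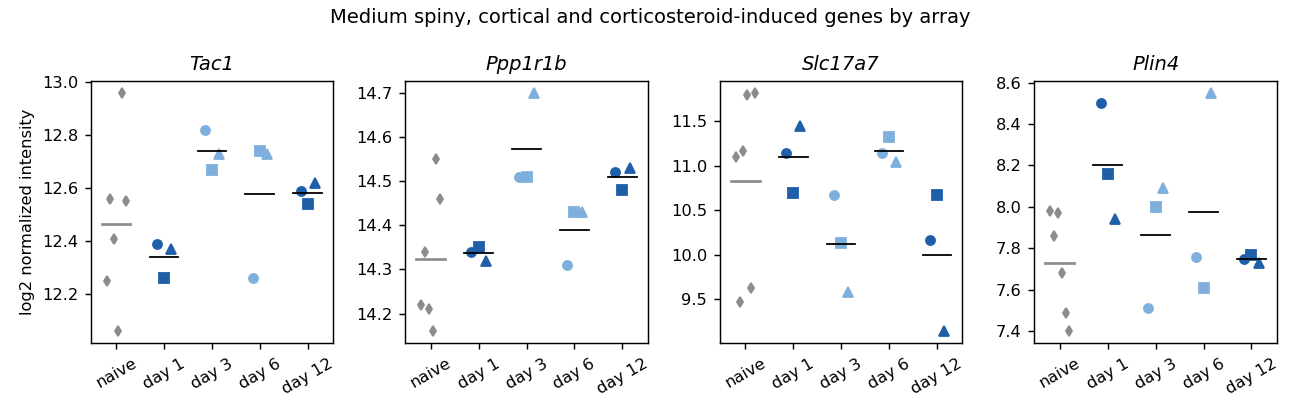
Levels of Tac1, Ppp1r1b, Slc17a7 and Plin4 by array (log2 normalized intensity, an axis for each gene): naive arrays in grey, saline days in blue, with circles, squares and triangles for replicates 1, 2 and 3 and a bar at each mean. Tac1 and Ppp1r1b have their lowest mean on day 1, Slc17a7 is low on days 3 and 12, and Plin4 is most uniform on day 12, at 7.73 to 7.77.

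Glial lists stayed near 0. Median fitted differences were -0.06 for 14 astrocyte genes, 0.02 for 13 microglial genes and -0.04 for 10 genes of reactive gliosis, with 0 genes called. Gfap, the intermediate filament of astrocytes, differed by -0.08 ± 0.190, with 10.75, 11.01 and 10.93 for day 1 and 10.92, 10.69 and 10.68 for day 12. Ttr, the main transcript of choroid plexus, cannot be read for a day effect: it stood at 10.35 to 10.74 for day 1 and 11.16 to 11.74 for day 12, but at 15.72 on day 3 replicate 2 and 14.01 on day 6 replicate 3, and its fitted difference was -0.82 ± 2.14 where the plain one was 0.97. Of 9 choroid plexus and ependyma genes, 5 were separated upward, Ttr, Folr1, Clic6, Sostdc1 and Dynlrb2, and 0 downward. Over all genes 4.31% were separated upward. The list's mean level was -0.24 to -0.15 for day 1, -0.02 to 0.08 for day 12 and -0.56 to 1.63 for day 3. The part of choroid plexus tissue in other differences was not tested.

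The intermediate days added no further call. Against day 1, 0 genes (0%) passed on day 3 and 0 (0%) on day 6, with 781 and 750 at an unadjusted p under 0.05. Cartpt, the precursor of the CART peptides, had among the smallest p on day 3, with 10.65, 10.64 and 10.56 for day 1 and 11.04, 11.08 and 11.18 for day 3 (0.83 ± 0.175, adjusted p = 0.156). It stood at 10.90, 10.93 and 11.20 for day 12, so all later arrays lay above day 1. Wdr83os at 0.44 ± 0.0953 and Sp7 at -1.06 ± 0.233 had the same adjusted p. For day 6 the smallest p belonged to Oprk1, the kappa opioid receptor, at 0.56 ± 0.124, with Pars2 at 0.48 ± 0.112 and Sntg2 at 0.53 ± 0.122 (adjusted p = 0.302). From day 3 to day 12 H2-T24 at -0.47 ± 0.101, Pex13 at 0.42 ± 0.0975 and Gjb1 at 0.53 ± 0.126 had the smallest p (adjusted p = 0.352 to 0.530). From day 6 to day 12, 0 genes (0%) passed and 638 had an unadjusted p under 0.05, led by Cavin3 at 0.31 ± 0.0781, Bcam at 0.38 ± 0.0936 and 4930426D05Rik at -0.54 ± 0.146 (adjusted p = 0.917). A test for any difference among the 4 days called 0 genes (0%), with 847 at an unadjusted p under 0.05.

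Because heroin day 12 and saline day 1 share slides, the fitted differences of the 2 courses share slide terms. Heroin given on the same schedule called 49 genes between day 12 and day 1, 27 higher and 22 lower, 0.398% of those tested. Ciart, a clock repressor, rose by 0.93 ± 0.128 in heroin (adjusted p = 5.1e-05), from 9.78, 9.26 and 9.29 to 10.49, 10.01 and 10.53. In saline it stood at 9.67, 9.22 and 9.41 for day 1 and at 9.41, 9.07 and 9.41 for day 12. Arntl fell by 0.58 in heroin (adjusted p = 0.00825) and differed by -0.10 in saline. Plin4 stood at 9.11, 8.47 and 8.52 on heroin day 1 and at 9.51, 9.10 and 9.40 on heroin day 12, a fitted 0.58 where saline had -0.64. Ramp1 differed by 0.17 in heroin and Fos by 0.43, with 8.93, 8.95 and 9.34 for day 1 and 9.14, 9.59 and 10.04 for day 12. The test of the difference itself, heroin minus saline, called 0 of 12323 genes (0%), with 826 at an unadjusted p under 0.05, so no gene is shown to differ between the 2 courses. The smallest adjusted p was 0.134, for Ciart with 0.98 ± 0.199, followed by Elavl1 and 1700093K21Rik (adjusted p = 0.150). For Plin4 it was 0.629. With array position in the model heroin itself called 0 genes, but heroin days 1 and 12 lie wholly at A and C. That fit relies on other groups to tell these positions apart, and the part of position in the heroin calls was not tested.

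**Figure D5:**
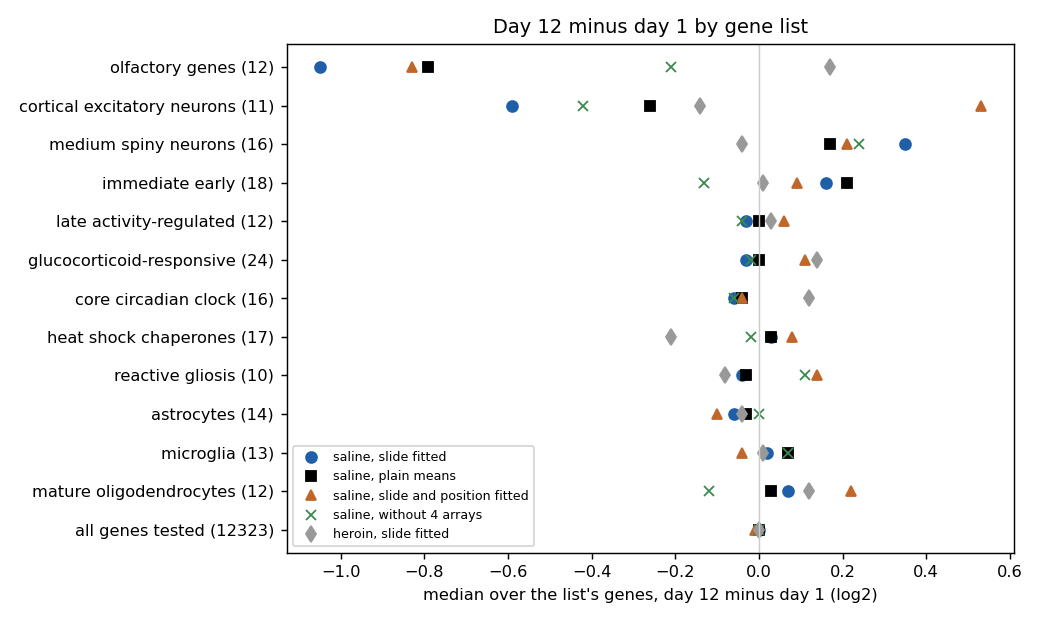
Median day 12 minus day 1 difference (log2) over the genes of 12 lists and over all genes, with the number of genes measured in brackets, under 4 treatments of the saline arrays and in heroin. Among the saline treatments the olfactory median runs from -1.05 to -0.21 and the cortical median from -0.59 to 0.53, the medium spiny median stays between 0.17 and 0.35 in saline, and all genes stay at -0.01 to 0.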

How the data were processed

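Total RNA of mouse striatum was labelled as biotinylated cRNA with the Ambion MessageAmp kit and hybridised to Illumina BeadChips, per the labels. The deposited signal table gives 1 linear intensity per probe and array, per the file headers. Software and background correction are not given in the sources used here. The authors' other deposited table holds log2 values in which the mean of every saline day and of the naive group is the same for all 45281 probes (tolerance 1e-06), so it holds no difference between saline days and was not used for them.

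Intensities were log2 transformed and then quantile-normalized. Probes above their array's 50th percentile on all arrays of at least 1 group were kept (23689 of 45281), named through the platform annotation (34885 probes with 1 symbol, 18 with several, 10378 with none), and the probe with the highest mean stood for each of 12323 genes, 4997 of which had more than 1 probe. limma 3.58.1 (R 4.3.3) fitted 24 group means and 13 slides to 75 arrays (36 coefficients, 39 residual degrees of freedom). The 3 methamphetamine day 1 arrays were left out. Tests were two-sided, and the script was tested on simulated data.

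The arrays, the 29 gene lists and the tests were chosen with earlier results of these data known. Genes were named by rule: up to 15 per direction past the threshold, filled to 10 by smallest p, the 3 smallest p of other contrasts without calls (up to 5 per direction otherwise), up to 4 members of each list and 19 fixed genes. Members named because their days did not overlap, and the olfactory genes, were chosen after their values were seen.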

Additional observations from a re-analysis of the deposited data

Results flagged for a closer look

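Among the 6 naive arrays, 76 genes named in the text were checked for a single array far from the rest by Dixon's test, and 7 were found. Chance alone gives about 1 in 20. Naive replicate 3 stood apart for 4 of them: Fosb at 9.16 with the next array at 8.58, Egr4 at 12.02 with the next at 11.21, Dusp1 at 11.19 with the next at 10.67, and Opalin, a myelin gene, low at 11.41 with the next at 11.73. Pars2 was at 8.49 on naive replicate 2, with the next array at 8.24. Bcl11b was low on naive replicate 1, at 13.16 with the next at 13.33, and Ttr was high on naive replicate 4, at 15.59 with the next at 11.77. Saline groups have 3 arrays and were not checked in this way.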

How the results depend on the processing

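The day 12 against day 1 count of 1 gene was recomputed under 30 other settings, and in 19 of them it was 0, so the Ramp1 call was lost there. It was 0 without a slide term, with slide as a random block, with array position, on chip lot 2 alone, on the 12 saline arrays, on the compared groups alone, after median centring, without the filter, with the mean of a gene's probes and without the 2 or 4 olfactory-high arrays. It was 2 on all 78 arrays, with normexp, with the 60th percentile filter and with array weights. Leaving out 1 saline array at a time gave 0 to 8 genes. The 8, without saline day 1 replicate 1, were Kank3, Lgr5, Ms4a15, Nppa, Omp and Scgn, lower, and Ramp1 and Rpp38, higher. Omp and Scgn are on the olfactory list. That fit leaves day 1 with only its 2 olfactory-high arrays, at 1.24 and 1.82, and the same holds for the counts without replicate 1 below. Ramp1 itself was above 0 in every setting run, from 0.19 to 0.43.

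For day 3 against day 1 the count of 0 became 1 on the 12 saline arrays, 9 with array weights, 14 without the 2 withdrawal arrays, among them Doc2g, Scgn, Sp8 and Th of the olfactory list as well as Sp7 (adjusted p = 0.000311), Ms4a15, Zfp608 and Cartpt, and 0 to 8 with 1 array left out (8 without saline day 1 replicate 1). For day 6 against day 1 it was 1 without the 2 withdrawal arrays and 0 to 1 with 1 array left out. For day 12 against day 3 it was 5 without a slide term, with or without the 4 olfactory-high arrays, 1 with the random block, 2 on the 12 saline arrays and 5 on the compared groups. For day 12 against day 6 it was 2 on the compared groups and 0 to 1 with 1 array left out. The test among the 4 days gave 2 genes without a slide term, with or without the 4 arrays, 1 with the random block, 2 on the 12 saline arrays and 2 without the 2 withdrawal arrays. The trend count of 2 became 1 with the mean of probes, 0 to 7 with 1 array left out (7 without saline day 1 replicate 1), and 0 on all 78 arrays, without a slide term, with the random block, position, chip lot 2, the 12 saline arrays, median centring, no filter, robust variances and without the 2 or 4 arrays.

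The 49 heroin genes became 81 without a slide term, 87 when the 4 arrays were also left out, 141 with the random block, 0 with position, 4 on chip lot 2, 0 on the compared groups, 204 after median centring, 31 without the filter, 107 with array weights and 5 to 65 with 1 array left out (5 without heroin day 12 replicate 3, 10 without heroin day 1 replicate 3). The heroin minus saline count of 0 became 2 without a slide term, 1 with the random block, 1 with the mean of probes, 3 with array weights and 0 to 2 with 1 array left out. The causes were not tested.

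Deviations from the day means were correlated across genes at -0.299, -0.205 and -0.181 for same-numbered arrays of days 1 and 12. Other pairs ran from -0.0578 to 0.259. Deviations from a mean of 3 arrays depend on one another, so these values do not settle whether the numbers pair the samples. With the replicate block the count was 0 for day 12 against day 1, 3 for day 3 against day 1 and 0 for the trend. No followed difference changed sign past the threshold, but for day 12 against day 1 only 1 gene, Ramp1, was past it as reported, so little could have. Of 76 followed genes, 15 uncalled differences changed sign with position and 10 without the 4 arrays. The authors' processed table could give a value only for the heroin minus saline count, which was 0.

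With 3 arrays a day, no shared slide and position tied to day, precision is limited, and a difference that missed the threshold is not shown to be absent.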

Other observations

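For 2 of 12 mature oligodendrocyte genes, Opalin and Gjb1, the day 12 arrays lay above the day 1 arrays, where 4.31% of all genes did so. Opalin, a membrane protein of mature oligodendrocytes, stood at 11.38, 11.76 and 11.32 for day 1 and at 11.81, 11.96 and 11.97 for day 12 (0.50 ± 0.154 fitted, 0.55 in heroin). Gjb1, the gap junction protein connexin 32, stood at 7.17, 7.15 and 7.15 for day 1 and at 7.19, 7.74 and 7.38 for day 12 (0.43 ± 0.123). The nearest arrays of the Gjb1 groups stood at 7.17 and 7.19. Neither gene passed, and the list median was 0.07, or -0.12 without the 4 olfactory-high arrays. Hspa1a, an inducible heat shock protein, stood at 8.64, 8.48 and 7.96 for day 1 and at 7.85, 7.95 and 7.93 for day 12 (-0.70 ± 0.208, adjusted p = 0.243), within a list of 17 chaperones whose median was 0.03. Oxt, the oxytocin precursor of hypothalamic neurons, was at 7.18 to 7.60 for day 1 and at 7.62, 7.70 and 10.68 for day 12, so replicate 3 alone was high.

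The remaining lists had 0 genes past the threshold in saline. Their median fitted differences were -0.13 for glucocorticoid receptor machinery, -0.12 for endoplasmic reticulum chaperones, -0.17 for interferon-stimulated genes, 0.01 for hypoxia and glucose supply, 0.05 for cytosolic ribosomal proteins, -0.04 for the mitochondrial respiratory chain, 0 for feeding and stress peptides and 0 for synaptic receptor subunits. For cells the medians were 0.02 for striatal interneurons, -0.18 for dopamine neurons, 0.04 for hippocampal neurons, -0.35 for thalamic and hypothalamic neurons, 0.03 for oligodendrocyte precursors and -0.02 for endothelial cells and pericytes. They were 0.07 for choroid plexus and ependyma, -0.24 for meninges, 0.18 for blood and -0.20 for class II antigen presentation. The choroid plexus median was 0.29 plain and -1.46 with position in the model, and the thalamic and hypothalamic one was -0.05 plain and -1.10 with position, so neither list can be read for a day effect. Other medians depended on the fit too. With position they were -0.41 for blood, -0.23 for striatal interneurons, -0.21 for hippocampal neurons and 0.07 for glucocorticoid receptor machinery. Ribosomal proteins at 0.01 and the respiratory chain at -0.03 moved little.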
